A study of Homo sapiens with 8 samples.

Results

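Collagen genes were examined in Rh41, a human tumour line established from alveolar rhabdomyosarcoma that carries the PAX3-FOXO1 fusion, after knockdown of G9a. The members were the rows of the deposited expression table whose symbol has the form COL, a number, A and a number. This gave 44 collagen symbols on 50 of the 60234 rows, and for COL11A2, listed under several identifiers, the row with the highest mean was used. Of the 44 collagens, 28 had a mean of at least 1 CPM (counts scaled to the reads assigned to genes in a library) over the 8 libraries and were tested, among 15092 genes tested in all. Rh41 cells labelled control made up 4 libraries, and Rh41 cells labelled siG9a, in which G9a was knocked down, made up the other 4, with no time point given. The series title writes shG9a where the sample labels write siG9a, and the labels give neither the knockdown sequence nor the control reagent. All libraries come from the same line. The submitters call the replicates biological without saying what was separate, so p-values may measure only a spread between technical repeats.

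Collagens are trimeric proteins of the extracellular matrix, built from chains with long glycine repeats that wind into a triple helix. Fibrillar collagens form the banded fibrils of connective tissue, type IV collagen forms the sheet of the basement membrane that surrounds each muscle fibre, and further families link, anchor or coat these structures. Chains are hydroxylated and folded in the endoplasmic reticulum before secretion, cut by proteinases outside the cell, and crosslinked by lysyl oxidases. In muscle most fibrillar collagen is made by fibroblasts, while muscle cells contribute to their own basement membrane. G9a, encoded by EHMT2, methylates lysine 9 of histone H3, a mark associated with silent genes.

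Libraries held 1458825 to 1938665 reads assigned to genes, so 1 read was worth 0.516 to 0.685 CPM, and 3 reads, taken as the floor, 1.55 to 2.06 CPM. EHMT2 measured 57.6, 68.1, 87.3 and 88.3 CPM in the control libraries 1 to 4 and 19.6, 35.1, 33.1 and 58.5 CPM in the siG9a libraries 1 to 4. It was lower in 4 of 4 pairs of the same number, with 1 siG9a library above the lowest control library. On the log2 scale it differed by −1.10, with an SE of 0.19 when replicate numbers were blocked and 0.31 when they were not. Limma gave an adjusted p of 0.000472 with this block and 0.191 without it (range over all fits 0.000308 to 0.813). EHMT2-AS1 overlaps the 3′ end of EHMT2 on the other strand. Both replicate 3 libraries stood apart from the others in each group, and the collagens were part of this. In both groups, 16 of the 28 collagens (57.1%) were below the mean of the other 3 libraries in replicate 3, against 36.9% of all genes tested. Higher in both groups were 4 collagens, against 5678 of the 15092 genes tested. Several results that rest on these libraries are therefore also given without the replicate 3 pair.

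Libraries of the same number deviated together clearly for numbers 1 and 3 (correlation across genes 0.50 and 0.67). For numbers 2 and 4 they barely did (0.10 and 0.13). No correlation between libraries of different numbers is given here. Therefore 2 limma fits are given throughout, an unblocked fit of group alone and a blocked fit that adds the replicate number. Each SE printed after a log2 change is that of the blocked fit. The unblocked SE was larger, for example 0.61 against 0.16 for COL3A1 and 0.53 against 0.16 for COL18A1. "Fell" and "rose" are used only for an adjusted p under 0.05 in the blocked fit. Without the block, limma called 0 of the 28 collagens and 0 of all genes tested (0%), while 5 collagens had an unadjusted p under 0.05, all with lower values in siG9a, against 6.38% of all genes in that direction. With the block, 6 collagens fell and 0 rose, and 11.4% of all genes were called, 6.52% lower and 4.86% higher. The 6 were COL5A1, COL1A1, COL18A1, COL19A1, COL25A1 and COL12A1. This was 21.4% of the collagens tested. Of the 9 collagens with a mean of at least 10 CPM, 3 fell, against 9.42% of the 8898 genes at that level. On recovered whole reads with the block, edgeR's quasi-likelihood test called 8 collagens, all lower (6.59% of all genes), and DESeq2 called 4, all lower (4.08% of all genes), with no adjusted p for 9 low collagens. Neither edgeR nor DESeq2 called a collagen without the block.

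Across the 28 collagens the median log2 change was −0.53, against 0.01 over all genes tested. Negative values were found for 22 collagens, and the changes ran from −1.84 to 0.71. In the 4 pairs of replicate numbers the collagen median was −0.30, −0.82, −0.45 and −0.35. Values were lower in siG9a in 4 of 4 pairs for 8 collagens (28.6%), against 15.3% of all genes, and higher in 4 of 4 pairs for 0. The siG9a values lay wholly below the control values for 2 collagens, COL12A1 and COL14A1, against 3.45% of all genes. Without the replicate 3 pair, the median was −0.41, the blocked fit called 5 collagens, all lower (4.59% of all genes in that direction), and the unblocked fit called 3, all lower, COL5A1, COL6A2 and COL25A1 (1.95% of all genes). The class medians were then −0.21 for fibrillar, −0.23 for basement membrane and −0.96 for the other collagens. The number of collagens without overlap between the groups was then 8, against 11.5% of all genes. The plot of log2 changes shows where each class lay.

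**Figure D1:**
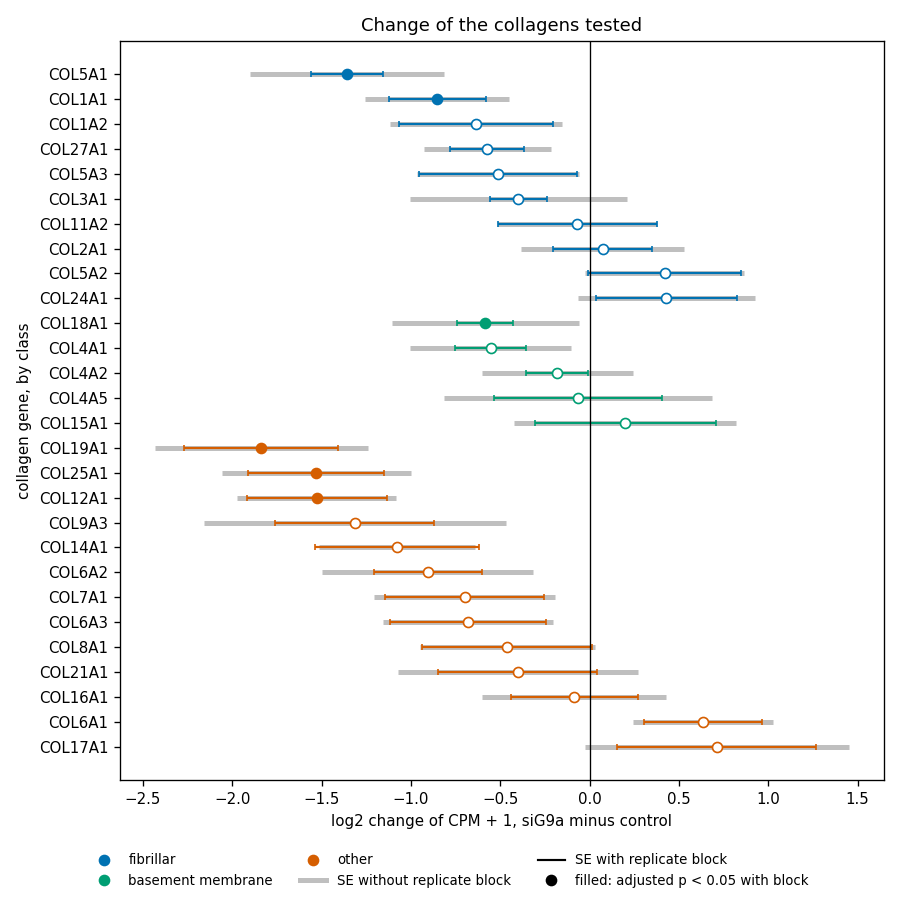
Log2 change of CPM + 1 (x axis, siG9a minus control) for the 28 collagens tested (y axis, grouped by class and coloured by it); grey bars are the standard error without the replicate block, thin bars with it, and filled points passed an adjusted p of 0.05 with the block. The 6 filled points, COL5A1, COL1A1, COL18A1, COL19A1, COL25A1 and COL12A1, all lie left of 0.

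Summed over all 44 collagens, expression was 1279, 1029, 425 and 899 CPM in control replicates 1 to 4. The corresponding siG9a libraries held 863, 560.5, 263 and 796 CPM. Each siG9a library was thus below the control library of its number, at 67.5%, 54.5%, 61.7% and 88.6% of it, but the groups overlapped, since control replicate 3 was lower than 3 siG9a libraries. Without the replicate 3 pair, the totals did not overlap, at 899 to 1279 CPM in control and 560.5 to 863 CPM in siG9a. The mean total was 908 ± 358 CPM in control against 621 ± 272 CPM in siG9a (SD, n = 4 each). In such bulk values, fewer cells that make collagen and less collagen RNA per cell cannot be told apart.

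The classes differed in how they spread over the libraries. Fibrillar collagens summed to 194 to 635 CPM in control and 98.2 to 442 CPM in siG9a. Basement membrane collagens summed to 126 to 524 CPM in control and 108.5 to 338 CPM in siG9a. The remaining collagens summed to 105.1 to 125.2 CPM in control and 55.9 to 83.1 CPM in siG9a. With all 8 libraries, this class alone had no overlap between its control and siG9a sums. Without the replicate 3 pair, the fibrillar sums did not overlap either, at 454 to 635 CPM in control and 246 to 442 CPM in siG9a. The basement membrane sums still overlapped, at 333 to 524 CPM in control and 248 to 338 CPM in siG9a. Control replicate 3 was the lowest control library in each class, far below the rest in the fibrillar and basement membrane sums. It was close to them in the sum of the others, where COL9A3 and COL17A1 were high, at 36.3 and 17.8 of its 105.1 CPM.

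**Figure D2:**
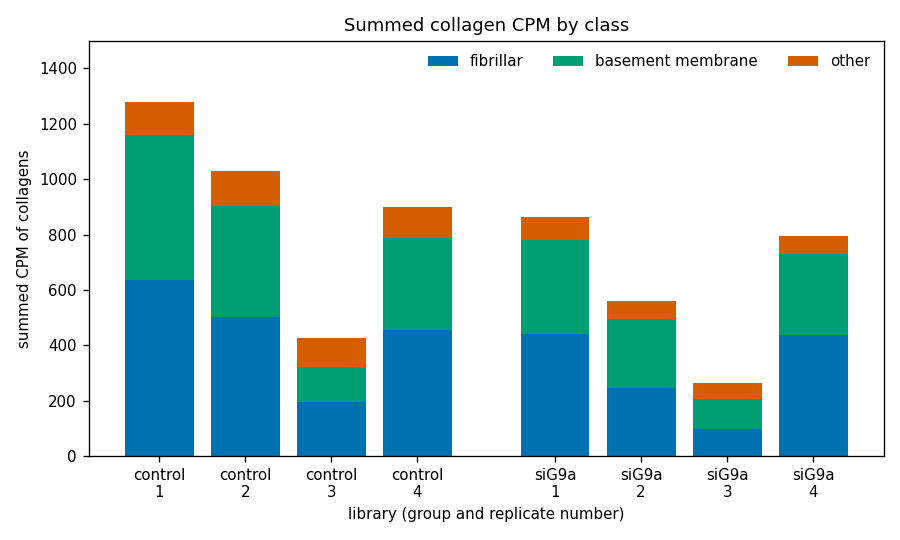
Summed CPM (y axis) of all 44 collagens in each of the 8 libraries (x axis), stacked by class. Totals run from 425 to 1279 CPM in control and from 263 to 863 CPM in siG9a, with replicate 3 lowest in both groups, and the orange segment of other collagens is smaller in every siG9a library than in any control library.

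The library kit reads transcript ends, so CPM does not grow with transcript length. Other differences between genes in how well their ends are counted were not tested, so the ranking is one of CPM only. The most abundant were COL3A1, COL4A2, COL18A1 and COL5A1, which together held 62.7% of the collagen CPM of a control library on average and 64.4% of a siG9a library. COL3A1 alone held 20.9% and 23.7%. COL5A1 held 11.8% in control and 6.99% in siG9a.

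The fibrillar class had 11 members, of which 10 were tested. In the blocked fit 2 fell and 0 rose, against 6.52% of all genes lower and 4.86% higher. The class median was −0.46. COL5A1 encodes the α1 chain of type V collagen, a minor fibrillar collagen that starts fibril assembly and limits fibril diameter. Its upstream stretch is shown because COL5A1 was the member called in every blocked fit; here and in the other upstream sequences, 150 bases that end just before a RefSeq start site are printed in lower case on the gene's own strand, and capitals mark a GC box (GGGCGG) or a CCAAT box (CCAAT) on either strand. This stretch, at chr9:134641653-134641802 of GRCh38.p14 on the plus strand, holds neither. For COL5A1 only the first start listed was used.
COL5A1: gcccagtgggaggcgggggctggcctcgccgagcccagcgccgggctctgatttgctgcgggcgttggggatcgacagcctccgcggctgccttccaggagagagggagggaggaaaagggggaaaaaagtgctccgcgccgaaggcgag

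COL5A1 (ENSG00000130635) measured 149, 134, 38.1 and 121.5 CPM in control replicates 1 to 4. In siG9a it measured 52.1, 33.9, 12.6 and 88.3 CPM. Every siG9a library was below the control library of its number, at 35.03%, 25.4%, 32.9% and 72.7% of it, while control replicate 3 lay inside the siG9a range. In log2 terms, the change was −1.36, with an SE of 0.20 in the blocked and 0.54 in the unblocked fit. Limma gave an adjusted p of 8.83e-05 in the blocked fit (3.86e-05 to 0.00668 over the 11 blocked fits) and 0.341 in the unblocked fit (0.0223 to 0.867). An exact two-sided permutation test of the 8 values gave p = 0.0857, where 4 against 4 can reach 0.0286. COL5A1 fell in 11 of 11 blocked fits, DESeq2 and edgeR included, and without replicate 3 its log2 change was −1.30. COL5A1-AS1 lies within the gene on the other strand, away from its 3′ end.

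COL1A1 (ENSG00000108821) encodes the α1 chain of type I collagen, the main collagen of tendon, bone and scar. It measured 52.8, 54.7, 55.3 and 44.7 CPM in control and 49.0, 19.97, 11.99 and 52.2 CPM in siG9a, in replicates 1 to 4. The control libraries were close together, whereas siG9a replicates 2 and 3 were low and siG9a replicates 1 and 4 lay within the control range. The log2 change was −0.85 ± 0.27 (SE), and limma gave an adjusted p of 0.041 in the blocked fit (0.0129 to 0.382 over the blocked fits) and 0.414 in the unblocked fit. Without the replicate 3 pair the change was −0.43 and the call was lost, with a limma adjusted p of 0.382 in the blocked fit. COL1A1 was called in 5 of 11 blocked fits, and edgeR (adjusted p of 0.0554) and DESeq2 (0.129) with the block did not call it.

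COL3A1 (ENSG00000168542), the chain of type III collagen that accompanies type I in stretchable tissue, was the highest collagen. Control libraries held 341, 214, 54.7 and 210.3 CPM and siG9a libraries 257, 120.5, 38.8 and 227 CPM. Values were lower in 3 of 4 pairs and higher in pair 4, and the groups overlapped. On the log2 scale it differed by −0.40 ± 0.16 (SE), and limma gave an adjusted p of 0.107 in the blocked fit (0.0271, without the replicate 4 pair, to 0.505) and 0.849 in the unblocked fit.

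COL27A1 (ENSG00000196739), a fibrillar collagen of cartilage, measured 51.4, 61.98, 21.5 and 46.2 CPM in control and 31.5, 44.2, 19.4 and 22.9 CPM in siG9a. It was lower in 4 of 4 pairs, at 49.6% to 90.2% of the control library of the same number. Its log2 change of −0.57 ± 0.21 (SE) missed the threshold in all 11 blocked fits (limma adjusted p of 0.0748 in the blocked fit of all 8 libraries, lowest 0.0564). COL2A1, the collagen of cartilage and of the vitreous, measured 22.6, 13.4, 6.76 and 15.1 CPM in control and 25.3, 11.5, 6.28 and 20.7 CPM in siG9a. It was higher in 2 pairs and lower in 2, with a log2 change of 0.07 ± 0.28 (SE) and a limma adjusted p of 0.904 in the blocked fit. Of the 10 fibrillar collagens tested, 7 had negative log2 changes.

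The other 5 fibrillar collagens tested were low. COL1A2, the partner chain of COL1A1 in type I collagen, averaged 6.16 ± 2.52 CPM in control against 4.04 ± 2.83 CPM in siG9a (SD, n = 4 each). COL5A2 and COL5A3, which join COL5A1 in type V trimers, averaged 3.98 and 3.51 CPM in control and 5.52 and 2.36 CPM in siG9a. COL24A1 and COL11A2 averaged 4.53 and 1.75 CPM in control and 5.75 and 1.57 CPM in siG9a. None of these 5 passed the threshold in either fit, and their limma adjusted p with the block ran from 0.385 for COL1A2 to 0.944 for COL11A2. COL11A1 held 1 read in all 8 libraries together.

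The basement membrane class comprised the 6 chains of type IV collagen and the multiplexins COL15A1 and COL18A1, of which 5 were tested. COL18A1 fell and 0 rose in the blocked fit, against 6.52% of all genes lower and 4.86% higher. The class median was −0.18, with 4 of 5 values negative. COL4A1 and COL4A2, whose products combine in the common type IV trimer, lie head to head, and the sequence is shown because both genes are transcribed outward from its ends. It is the 126 bases between their RefSeq start sites, at chr13:110307158-110307283 of GRCh38.p14, printed on the plus strand, so that COL4A2 starts after its last base and COL4A1 starts before its first base on the other strand. Capitals mark 1 CCAAT box and 1 GC box.
COL4A1-COL4A2: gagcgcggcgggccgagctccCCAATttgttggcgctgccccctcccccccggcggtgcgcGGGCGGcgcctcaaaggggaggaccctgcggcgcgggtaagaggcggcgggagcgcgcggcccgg

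COL4A1 (ENSG00000187498) measured 93.9, 56.5, 18.5 and 51.4 CPM in control and 52.6, 35.7, 17.1 and 32.7 CPM in siG9a. It was lower in 4 of 4 pairs, at 56.0%, 63.2%, 92.8% and 63.6% of control, with little difference in pair 3. Its log2 change was −0.55 ± 0.20 (SE), and limma gave an adjusted p of 0.0722 in the blocked fit (0.0423 to 0.273) and 0.674 in the unblocked fit, and edgeR with the block called it. COL4A2 (ENSG00000134871) measured 215, 168, 54.1 and 101.3 CPM in control and 149, 108.3, 52.5 and 140.5 CPM in siG9a. It was lower in 3 pairs and, in pair 4, higher at 139% of control, with a log2 change of −0.18 ± 0.17 (SE) and a limma adjusted p of 0.563 in the blocked fit. The genes therefore parted mainly in pair 4, and in replicate 3 both were low in control and in siG9a. COL4A2-AS1 and COL4A2-AS2 share exon positions with COL4A2 on the other strand.

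Of the remaining type IV chains, COL4A5 was tested and was seen mainly in replicate 3, at 7.99 CPM in control and 5.14 CPM in siG9a, with at most 1.82 CPM in any other library. COL4A6, its neighbour on the X chromosome, stayed below the filter with a highest value of 3.69 CPM, also in control replicate 3. COL4A3 had 0 reads and COL4A4 1 read over all libraries, so the kidney-type trimer of COL4A3, COL4A4 and COL4A5 was not detectable at this depth, where the floor lies at 1.55 to 2.06 CPM.

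COL18A1 (ENSG00000182871) encodes the core protein of a basement membrane heparan sulfate proteoglycan whose end piece is endostatin. Stretches upstream of its first and second RefSeq start are shown because the gene fell and because they differ in composition. They lie at chr21:45405015-45405164 and chr21:45455372-45455521 of GRCh38.p14 on the plus strand. The first holds 6 GC boxes, of which 2 overlap by a base, in 90.0% G and C, and the second 1 GC box in 70.0% G and C, where the median upstream stretch of that length has 60.0%.
COL18A1 first start: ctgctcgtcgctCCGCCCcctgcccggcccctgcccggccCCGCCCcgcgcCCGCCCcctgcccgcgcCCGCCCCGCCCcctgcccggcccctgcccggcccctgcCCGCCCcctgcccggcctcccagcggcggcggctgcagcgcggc
COL18A1 second start: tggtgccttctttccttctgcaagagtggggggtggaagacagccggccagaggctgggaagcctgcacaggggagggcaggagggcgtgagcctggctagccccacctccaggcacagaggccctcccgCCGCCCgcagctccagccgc

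COL18A1 measured 215, 170.1, 40.6 and 180 CPM in control and 129.99, 101.7, 33.1 and 119 CPM in siG9a. Within pairs the siG9a value was 60.6%, 59.8%, 81.6% and 66.1% of control, a narrow range, although control replicate 3 was below 3 siG9a libraries. In log2 terms, the change was −0.58 ± 0.16 (SE), and limma gave an adjusted p of 0.016 in the blocked fit (0.0124 to 0.131 over the blocked fits) and 0.705 in the unblocked fit. The call was lost in the blocked fits without the replicate 1 pair and without the replicate 2 pair, and held without replicate 3 (adjusted p of 0.0248, log2 change −0.68). Exons of SLC19A1 reach the last 500 bases of COL18A1 on the other strand, and SLC19A1 averaged 82.9 CPM in control and 75.4 CPM in siG9a, so the 2 cannot be parted without knowing whether strand was used. The other multiplexin, COL15A1, averaged 0.91 CPM in control and 2.002 CPM in siG9a, the latter through siG9a replicate 1 at 6.19 CPM.

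**Figure D3:**
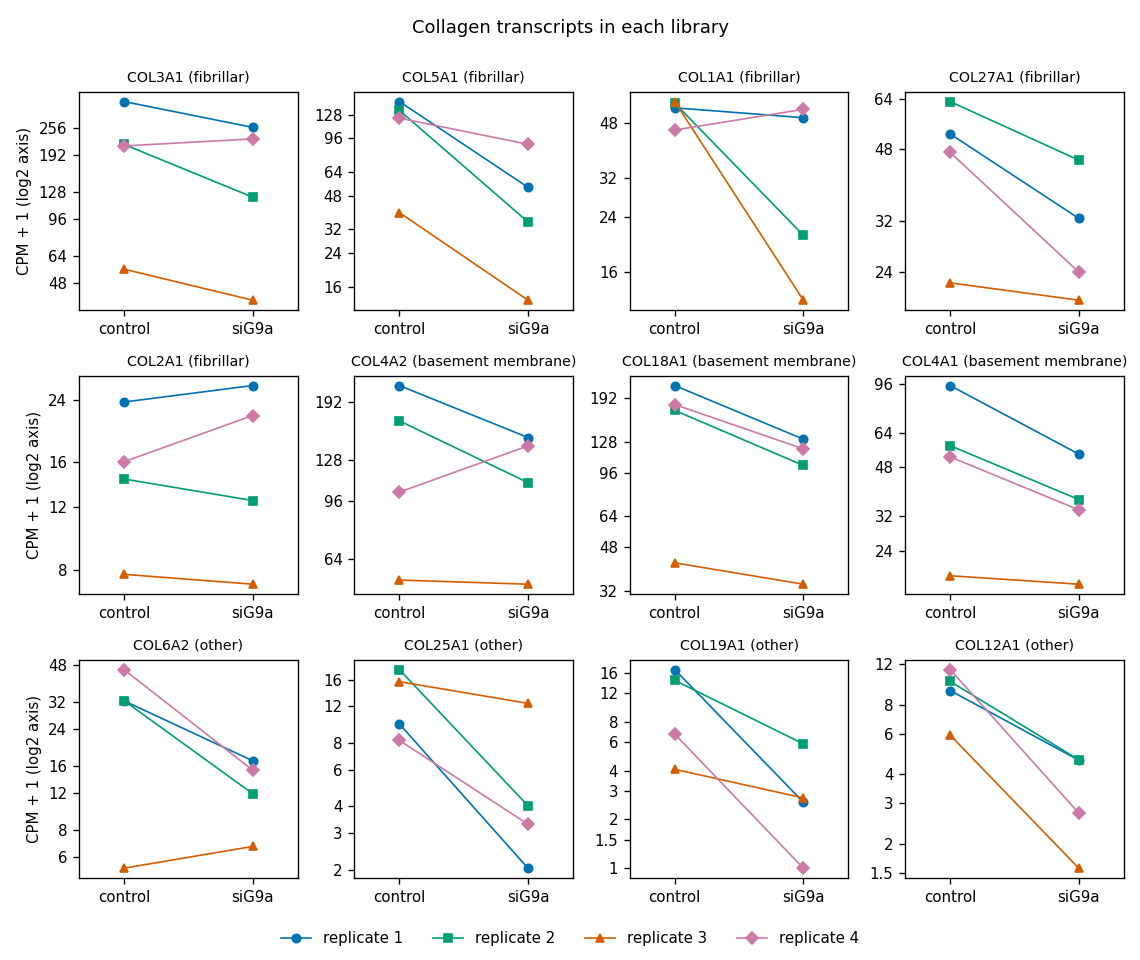
CPM + 1 (y axis, log2 scale, own range in each panel) in control and siG9a (x axis) for the 12 collagens with a mean of at least 10 CPM or a call with the block; each line joins the libraries of 1 replicate number. COL5A1, COL27A1, COL18A1, COL4A1, COL25A1, COL19A1 and COL12A1 slope down in 4 of 4 pairs, and replicate 3 (orange triangles) lies far below the others in COL3A1, COL5A1, COL4A2 and COL18A1.

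The class of other collagens had 25 members, of which 13 were tested, with a median of −0.70 and 11 negative values. Against 6.52% of all genes lower and 4.86% higher in the blocked fit, 0 of the 13 rose and 3 fell. They were COL19A1 and COL12A1, members of the FACIT group, which sit on the surface of fibrils through interrupted triple helices, and COL25A1, a transmembrane collagen needed on muscle for its innervation by motor axons. Their upstream stretches are shown as those of the members with the largest called falls. They lie at chr6:69866406-69866555 on the plus strand (COL19A1), chr6:75206054-75206203 on the minus strand (COL12A1) and chr4:109302659-109302808 on the minus strand (COL25A1) of GRCh38.p14, and hold neither a GC box nor a CCAAT box.
COL19A1: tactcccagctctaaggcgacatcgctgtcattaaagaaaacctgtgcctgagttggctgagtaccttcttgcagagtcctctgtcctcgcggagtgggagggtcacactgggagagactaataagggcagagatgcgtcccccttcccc
COL12A1: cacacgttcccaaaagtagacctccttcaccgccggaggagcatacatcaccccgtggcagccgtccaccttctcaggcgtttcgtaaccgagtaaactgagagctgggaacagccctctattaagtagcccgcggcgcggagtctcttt
COL25A1: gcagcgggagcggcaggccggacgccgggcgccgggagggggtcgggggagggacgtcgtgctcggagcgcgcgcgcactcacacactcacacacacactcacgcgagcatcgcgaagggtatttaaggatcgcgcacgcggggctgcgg

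COL19A1 (ENSG00000082293), a FACIT made by differentiating muscle cells and some neurons, measured 15.8, 13.4, 3.07 and 5.71 CPM in control. In siG9a it measured 1.55, 4.84, 1.71 and 0 CPM, that is 3, 8, 3 and 0 reads. Every pair was lower, and 3 of the 4 siG9a libraries were at or under the floor of 3 reads. The log2 change was −1.84 ± 0.43 (SE), and limma gave an adjusted p of 0.00605 in the blocked fit (0.00545 to 0.0654) and 0.247 in the unblocked fit, and the exact permutation p was 0.0571. The call was lost in the blocked fit without the replicate 1 pair. LMBRD1 shares exon positions with COL19A1 on the other strand.

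COL12A1 (ENSG00000111799), a FACIT of tendon and muscle connective tissue, measured 8.23, 9.11, 4.92 and 10.4 CPM in control and 3.61, 3.63, 0.57 and 1.72 CPM in siG9a. All 4 siG9a values lay below all 4 control values. The siG9a values rested on 7, 6, 1 and 3 reads. Its log2 change was −1.53 ± 0.39 (SE), and limma gave an adjusted p of 0.012 in the blocked fit (0.00997 to 0.0677) and 0.209 in the unblocked fit. The exact permutation p was 0.0286, the smallest that 4 against 4 allow. Without the replicate 3 pair the log2 change was −1.40 and the limma adjusted p with the block 0.0581. The blocked fit without the replicate 4 pair and DESeq2 with the block (adjusted p of 0.0677) did not call it either.

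COL25A1 (ENSG00000188517) measured 8.91, 17.01, 14.8 and 7.27 CPM in control and 1.03, 3.03, 11.4 and 2.29 CPM in siG9a. It was lower in 4 of 4 pairs, at 11.6%, 17.8%, 77.4% and 31.5% of control, and siG9a replicate 3 was the only siG9a library within the control range. The siG9a libraries held 2, 5, 20 and 4 reads of it, so that replicate 1 was under the floor of 3 reads. On the log2 scale it differed by −1.53 ± 0.38 (SE), and limma gave an adjusted p of 0.00977 in the blocked fit (0.00977 to 0.102) and 0.273 in the unblocked fit. In the fits without the replicate 3 pair the change was −1.93, at limma adjusted p-values of 0.0111 in the blocked fit and 0.0404 in the unblocked fit, but the blocked fits without the replicate 1 pair and without the replicate 2 pair lost the call.

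Type VI collagen forms beaded filaments beside the muscle basement membrane, and its chains are described side by side. COL6A2 (ENSG00000142173) measured 31.5, 31.6, 4.30 and 44.7 CPM in control and 15.99, 10.9, 5.71 and 14.3 CPM in siG9a. It was low in both replicate 3 libraries, and in the other 3 pairs siG9a was 50.7%, 34.5% and 32.1% of control. In log2 terms, the change was −0.91 ± 0.30 (SE), with a limma adjusted p of 0.0518 in the blocked fit, and COL6A2 was called in 4 of 11 blocked fits. Without the replicate 3 pair the log2 change was −1.32, at limma adjusted p-values of 0.00646 in the blocked fit and 0.0278 in the unblocked fit. COL6A1 measured 6.17, 9.11, 6.15 and 7.27 CPM in control and 12.9, 14.5, 5.14 and 17.8 CPM in siG9a, with higher values in 3 of 4 pairs. Its log2 change was 0.63 ± 0.33 (SE), with a limma adjusted p of 0.232 in the blocked fit. COL6A3 averaged 4.51 CPM in control and 2.28 CPM in siG9a, with an adjusted p of 0.351 in the same fit.

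Among the other FACIT members, COL9A3, a chain of the cartilage collagen type IX, was marked by replicate 3. It measured 1.37, 4.86, 36.3 and 3.12 CPM in control and 1.55, 0, 9.13 and 1.15 CPM in siG9a, and its log2 change of −1.32 ± 0.44 (SE) had a limma adjusted p of 0.0557 in the blocked fit, while edgeR with the block called it. Without the replicate 3 pair the log2 change of COL9A3 was −1.13, at a limma adjusted p of 0.245 in the blocked fit. TCFL5 reaches the last 500 bases of COL9A3 on the other strand. COL14A1 averaged 2.32 CPM in control and 0.56 CPM in siG9a without overlap, but no siG9a library held more than 2 reads and its limma adjusted p was 0.133 with the block. COL16A1 averaged 10.6 and 8.94 CPM and COL21A1 2.68 and 1.45 CPM in control and siG9a, at limma adjusted p-values of 0.912 and 0.626 in the blocked fit.

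COL17A1, a transmembrane collagen of hemidesmosomes, differed widely within both groups. It measured 0.69, 3.65, 17.8 and 7.27 CPM in control and 22.7, 14.5, 6.28 and 2.29 CPM in siG9a. It was higher in pairs 1 and 2 and lower in pairs 3 and 4, and its log2 change of 0.71 ± 0.56 (SE) had a limma adjusted p of 0.462 in the blocked fit. COL7A1, which builds the anchoring fibrils of skin, averaged 4.32 and 2.56 CPM, and COL8A1, of vessel wall and cornea, 1.52 and 1.07 CPM, and neither was called in either fit.

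**Figure D4:**
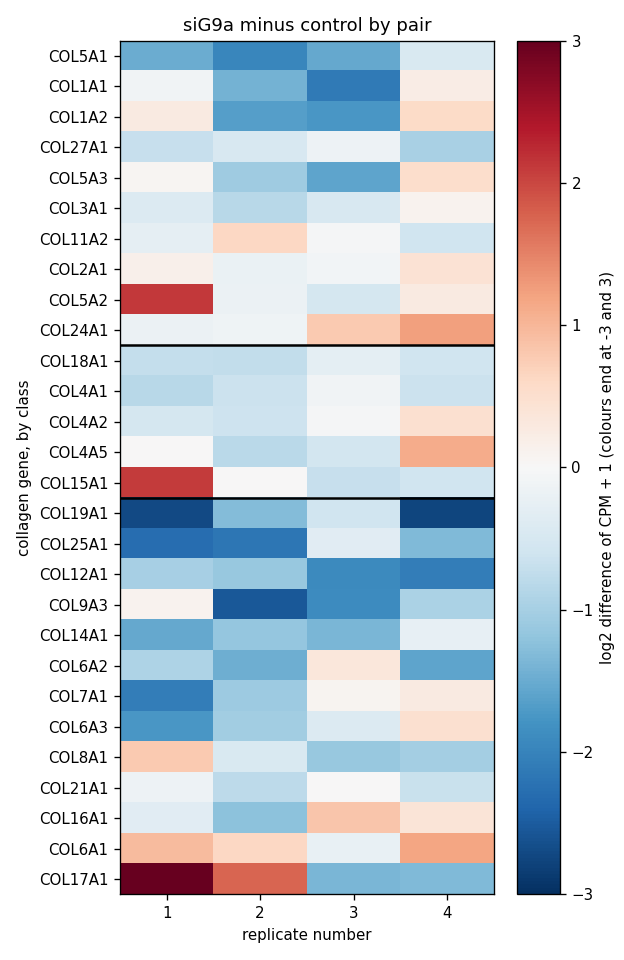
Log2 difference of CPM + 1 (colour, siG9a minus control) within each replicate number (x axis) for the 28 collagens tested (y axis; black lines part fibrillar, basement membrane and other collagens from top to bottom). COL5A1, COL18A1, COL19A1, COL25A1 and COL12A1 are blue in 4 of 4 columns, while COL17A1 is red in the first pair of columns and blue in the last.

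The 16 collagens below the filter gave little signal. COL4A3 and COL10A1 had 0 reads in all libraries, and the other 14 had at most 6 reads in any library. Just under the limit of 1 CPM were COL8A2 at 0.98 CPM and COL9A2 at 0.97 CPM, and just above it was COL8A1 at 1.295 CPM. COL8A2 averaged 1.69 CPM in control and 0.27 CPM in siG9a.

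Ratios between chains that share a trimer do not depend on the scaling of a library, and 5 such ratios were formed after the values had been seen. COL6A2 to COL6A1 was 5.11, 3.47, 0.70 and 6.14 over control libraries 1 to 4 and 1.24, 0.75, 1.11 and 0.81 over siG9a libraries. Control replicate 3 was again unlike the other control libraries, whose ratios were all above every siG9a ratio. COL6A3 to COL6A1 was 1.22, 0.67, 0.30 and 0.36 in control and 0.12, 0.17, 0.22 and 0.23 in siG9a, without overlap. COL5A1 to COL5A2 was lower in 4 of 4 pairs, from 6.20 to 108.6 in control and from 3.14 to 17.1 in siG9a. The ratio of 108.6, in control replicate 1, rests on 2 reads of COL5A2, under the floor of 3. The COL6A3 ratios rest on 3, 4, 2 and 7 reads of COL6A3 in siG9a. COL4A2 to COL4A1 ran from 1.97 to 2.97 in control and from 2.83 to 4.30 in siG9a, and COL1A1 to COL1A2 from 5.63 to 12.8 and from 6.996 to 10.5.

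On the scale of log2 ratios with 1 CPM added to each chain, siG9a minus control was −1.32 for COL6A3 to COL6A1, −1.54 for COL6A2 to COL6A1, −1.78 for COL5A1 to COL5A2, 0.37 for COL4A2 to COL4A1 and −0.22 for COL1A1 to COL1A2. Exact two-sided permutation tests over the 8 libraries gave p = 0.0286, 0.143, 0.0857, 0.114 and 0.371 in that order. Adjusted over the 5 ratios, p was 0.143 for COL6A3 to COL6A1, 0.179 for the next 3 and 0.371 for COL1A1 to COL1A2, so that none passed. These permutations do not keep the pairs, and an exact test within 4 pairs cannot go below p = 0.125. Within pairs, COL6A3 to COL6A1 was lower in 4 of 4 and COL4A2 to COL4A1 higher in 4 of 4. Without the replicate 3 pair the COL6A2 to COL6A1 difference was −2.24.

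**Figure D5:**
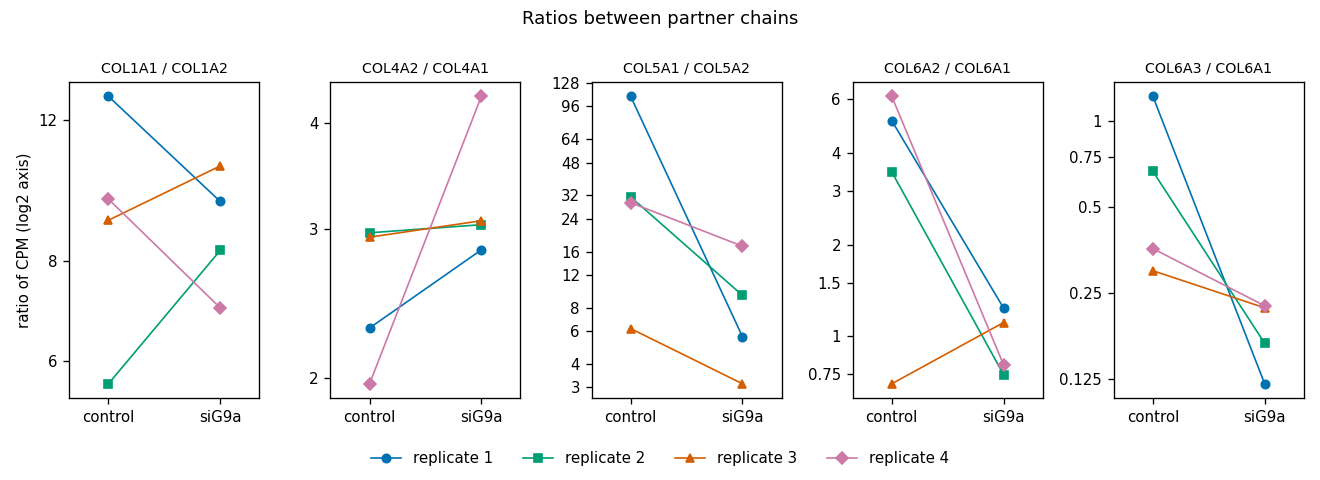
Ratio of CPM between chains of the same collagen type (y axis, log2 scale, own range in each panel) in control and siG9a (x axis), with lines joining the libraries of 1 replicate number. The COL6A3 to COL6A1 ratios lie between 0.12 and 0.23 in siG9a and between 0.30 and 1.22 in control, and the COL6A2 to COL6A1 line of replicate 3 runs against the other 3.

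Promoter sequences were compared over the collagens present in the set of RefSeq promoter windows used here. That set held 44 windows for 32 collagen symbols. COL1A1 and COL3A1 were among the collagens without a window, so they are not in these counts. In the 150 bases upstream of a start, 19 of the 44 windows held a GC box (GGGCGG), 8 a CCAAT box (CCAAT), 5 a TATA box (TATAAA) and 9 an E-box (CANNTG), the motif bound by MYOD and related factors, on either strand. Over all 35116 windows of the set, the shares were 36.8%, 23.5%, 6.71% and 44.2%. None of the 7 sequences printed here holds an E-box or this TATA box. These counts are a description of letters in the windows, several windows belong to the same gene, and no binding was measured.

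The enzymes that modify and fold procollagen were measured next. Of 20 listed genes 18 were tested, with a median log2 change of −0.17. In the blocked fit 3 fell and 1 rose, against 6.52% of all genes lower and 4.86% higher. P4HA2, a prolyl hydroxylase subunit, fell from 11.3 ± 3.70 to 4.27 ± 3.35 CPM and LEPREL1, a prolyl 3-hydroxylase, from 27.2 ± 12.5 to 13.2 ± 7.65 CPM (SD, n = 4 each). P4HA2 showed no overlap, but its siG9a replicates 1 and 2 held 3 and 2 reads, at or under the floor. In pairs 1 to 4 it stood at 9.42%, 11.1%, 69.6% and 95.8% of control. DESeq2 with the block did not call it (adjusted p of 0.106). FKBP14, a prolyl isomerase that acts on procollagen, fell from 81.9 ± 7.35 to 50.7 ± 17.5 CPM, without overlap. COLGALT1, which adds galactose to hydroxylysine, rose from 127.6 ± 33.5 to 180.2 ± 21.7 CPM. The log2 changes of the 4 were −1.43, −1.02, −0.74 and 0.53, at limma adjusted p-values of 0.0273, 0.0122, 0.0112 and 0.0273 in the blocked fit and of 0.273 or more in the unblocked fit. SERPINH1, the collagen chaperone HSP47, averaged 455 ± 281 CPM in control against 566 ± 265 CPM in siG9a (SD, n = 4 each), with a log2 change of 0.37 and a limma adjusted p of 0.152 in the blocked fit.

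Genes of procollagen secretion and of its cleavage outside the cell were counted in the same way. Of 9 secretion genes tested, 1 rose and 0 fell in the blocked fit, with a median of 0.12. Of all genes, 4.86% rose and 6.52% fell. KLHL12, an adaptor of the ubiquitin ligase that enlarges transport vesicles for procollagen, rose from 14.3 ± 4.57 to 29.03 ± 7.38 CPM (SD, n = 4 each), without overlap (limma adjusted p of 0.0187 in the blocked and 0.254 in the unblocked fit). Of 7 processing genes tested, 3 fell and 0 rose, beside the same shares of all genes, with a median of −0.75. ADAMTS14, which removes procollagen amino-terminal peptides, fell from 22.1 ± 11.3 to 6.12 ± 3.33 CPM, a log2 change of −1.65 with a limma adjusted p of 0.000699 in the blocked fit. BMP1, which cuts at the carboxyl end, and TLL2 had log2 changes of −0.75 and −1.56. Their limma adjusted p-values were 0.0362 and 0.0196 in the blocked fit. Unblocked limma called none of these 3. TLL2 averaged 3.79 CPM in control and 0.68 CPM in siG9a, close to the floor.

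Lysyl oxidases crosslink collagen, and of the 4 tested (median 0.29) none was called in either fit. LOX was higher in siG9a in 4 of 4 pairs without overlap, as were 585 of the 15092 genes tested without overlap. It held 0, 1, 1 and 0 reads in control and 9, 2, 2 and 3 in siG9a, mostly at or under the floor. LOXL3 was also higher in 4 of 4 pairs, and LOXL1 and LOXL2 were each lower in 3 of 4. Among 9 collagen receptors tested, 2 fell and 0 rose in the blocked fit, with a median of −0.60. The shares of all genes were 6.52% lower and 4.86% higher. ITGA1, the α1 integrin subunit that binds type IV collagen, fell from 25.1 ± 8.68 to 9.59 ± 3.06 CPM (SD, n = 4 each), a log2 change of −1.27 with a limma adjusted p of 0.00269 in the blocked fit. DDR2, a receptor tyrosine kinase for fibrillar collagen, fell from 80.3 ± 42.0 to 44.7 ± 22.6 CPM (SD, n = 4 each), a log2 change of −0.77 with a limma adjusted p of 0.00769 in the blocked fit. Without the block their adjusted p-values were 0.207 and 0.65.

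Of 16 genes listed as partners of fibrils and basement membranes, 8 were tested, with a median of −0.86. In the blocked fit 4 fell and 0 rose, against 6.52% of all genes lower and 4.86% higher. HSPG2, the basement membrane proteoglycan perlecan, fell from 411 ± 213 to 193 ± 93.1 CPM, and FBLN1, fibulin-1, from 61.2 ± 17.7 to 25.9 ± 9.97 CPM (SD, n = 4 each). SPARC, a collagen-binding protein, fell from 485 ± 150 to 278 ± 142 CPM (SD, n = 4 each) and TNC, tenascin-C, from a range of 32.9 to 52.9 CPM to one of 12.1 to 29.9 CPM. In log2 these 4 changes were −1.01, −1.26, −0.92 and −0.96, lower in 4 of 4 pairs each, at limma adjusted p-values of 7.52e-05, 0.000154, 0.00161 and 0.00812 in the blocked fit and of 0.511, 0.201, 0.347 and 0.237 in the unblocked fit. FN1, fibronectin, was far higher than any collagen at 2456 CPM in control and 2265 CPM in siG9a, with a limma adjusted p of 0.605 in the blocked fit. Over these 6 lists, 14 calls were made, and 4 of them were lost in the blocked fit without the replicate 3 pair: COLGALT1 (limma adjusted p of 0.0692), BMP1 (0.0851), TLL2 (0.0725) and SPARC (0.0541). ADAMTS14, ITGA1, HSPG2 and FBLN1 were called in all 11 blocked fits, with highest adjusted p-values of 0.0151, 0.0352, 0.00547 and 0.00333. Unblocked limma and edgeR called none of the 14 with all 8 libraries, and unblocked DESeq2 called ADAMTS14 (adjusted p of 0.0489), ITGA1 (0.0362) and FBLN1 (0.0404). BGN and POSTN had 0 reads in every library. LDLRAD2 reaches the 3′ end of HSPG2, and P4HA2-AS1 that of P4HA2, on the other strand.

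Markers of the tumour and of other cell types were read beside the collagens. Of 8 rhabdomyosarcoma and myogenic markers, 7 were tested, MYF5 was at 0 in every library, and the summed level ran from 207 to 1464 CPM in control and from 189 to 1201 CPM in siG9a, with replicate 3 lowest in both. In the blocked fit 3 of the 7 fell, DES, CDH15 and FGFR4, against 6.52% of all genes lower and 4.86% higher. MYOD1, MYOG, PAX3 and MYCN were not called, at log2 changes of −0.03, −0.65, −0.08 and 0.65. MYCN was higher in 4 of 4 pairs. Of 8 fibroblast and stromal markers, 4 were tested, and the sum ran from 37.5 to 86.4 CPM in control and from 11.99 to 44.9 CPM in siG9a, most of it FBLN1, the only one of the 4 that was called. DCN and LUM averaged at most 0.43 CPM in either group. The 4 endothelial markers found summed to at most 2.08 CPM, with CDH5 and KDR at 0, and the 5 epithelial markers to between 10.3 and 75.6 CPM, highest in control replicate 3, with 1 of 4 tested called lower. Mitochondrial genes took 4.59% to 9.18% of control reads and 5.21% to 13.7% of siG9a reads. The part of these differences in the collagen values was not tested.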

How the data were processed

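Per the labels' protocols, 100 ng of total RNA per library went into QuantSeq 3′ libraries that were read once for 75 bases. The authors deposited CPM to 2 decimals, per the file headers in 1 column per library, which scales each count to all reads assigned to genes. Per the submitters' processing notes, FastQC 0.11.8, Trim Galore, STAR 2.5.0a, HTSeq 0.8.0 and edgeR 3.28 were used and the builds GRCh38 and hg19 are named, without their roles. Strand use and annotation are not given in the sources used here. The sequences printed are those of RefSeq on GRCh38.p14, and GENCODE 29 was used only for overlaps between genes.

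The collagens and the gene lists were chosen with earlier results of these data known. The test was limma 3.58.1 (R 4.3.3) on log2(CPM + 1), two-sided, with eBayes trend, over genes averaging 1 CPM or more, Benjamini-Hochberg adjusted at 0.05, and fold changes of low genes are understated by the added 1 CPM. Whole reads were recovered for 100% of non-zero values (within 0.006 CPM) for edgeR 4.0.16 and DESeq2 1.42.0. The pairing comes from replicate numbers in the titles, unexplained by the labels. Across genes, deviations from the group means correlated at 0.50, 0.10, 0.67 and 0.13 for numbers 1 to 4, each over 0.1 before rounding (0.104 for number 2). No pair of libraries in a group matched within sampling noise (chi-square over its degrees of freedom 5.90 to 28.7). Collagens with a mean of at least 10 CPM or a call in either fit are given in full, and of each list up to 4 called members, with EHMT2 and SERPINH1. The alternatives were pseudocounts, filters, scaling, the block, the count tools, and leaving out libraries or pairs. Floors cover counting error only.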

Additional observations from a re-analysis of the deposited data

Results flagged for a closer look

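For the collagens given in full, the class sums and the further genes named, the most extreme library of a group of 4 was compared with the nearest other one. The gap passed Dixon's 95% limit in 4 of 64 groups, where chance gives about 3.2 (1 in 20), and all 4 were replicate 3 libraries. SERPINH1, the collagen chaperone, was far below the rest in siG9a replicate 3, at 171.8 CPM against 662 to 738 CPM. COLGALT1, the hydroxylysine galactosyltransferase, was far above the rest in siG9a replicate 3, at 212 CPM against 166.6 to 174 CPM. In control replicate 3, DDR2 was low at 17.8 CPM, against 96.1 to 108.3 CPM in the rest. HSPG2 was low there too, at 93.5 CPM against 491 to 542 CPM. No collagen given in full and no class sum was among the 4.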

How the results depend on the processing

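The replicate block moved the number of collagens called most, from 0 to 6, and that of all genes from 0 to 1717. Blocked fits called 1363 genes and 5 collagens with a pseudocount of 0.1, 1710 and 8 with 5, 1692 and 7 with median-ratio scaling, and 1653 and 5 with a mean of at least 5 CPM. Leaving out replicate pairs 1 to 4, they called 951, 668, 1078 and 1393 genes with 4, 3, 5 and 6 collagens. With the block, edgeR called 1711 genes and 8 collagens and DESeq2 936 and 4. Without it, DESeq2 called 292 genes and 0 collagens, and limma with no filter 18 genes and 0 collagens. Unblocked limma without 1 library called 0 to 300 genes (300 without control replicate 3, 2 without siG9a replicate 4) and 0 or 1 collagen, COL6A2 without control replicate 3, and without replicate pair 3 it called 413 genes and 3 collagens.

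The median log2 change of basement membrane collagens was −0.18 and became −0.56 with a pseudocount of 0.1 and −0.55 with a mean of at least 5 CPM, in both fits. Without the block, it was −0.50 in edgeR and −0.54 in DESeq2. With the block, these were −0.31 and −0.20. The median of the other collagens, −0.70, became −1.04 with a pseudocount of 0.1, −0.36 with 5, −1.11 with a mean of at least 5 CPM, in both fits, and −1.09 in DESeq2 with the block. Leaving out 1 library, the median ranged over −0.67 to −0.019 for fibrillar (siG9a replicates 1 and 3), −0.55 to −0.017 for basement membrane (control replicates 3 and 2) and −0.68 to −0.27 for all collagens (siG9a replicates 4 and 3). Without pairs 1, 2, 3 and 4 the basement membrane median was −0.43, −0.033, −0.23 and −0.45. The fibrillar median, −0.46 with all libraries, was −0.30 without pair 2 and −0.21 without pair 3, and without pair 4 that of the other collagens was −1.02.

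No log2 change of a collagen called in the blocked fit changed sign. With a pseudocount of 0.1, COL4A5 became 0.40 and COL15A1 −0.62 in both fits. Leaving out 1 library gave ranges that crossed 0 for COL2A1 (−0.22 to 0.42), COL3A1 (−0.94 to 0.17, positive without siG9a replicate 3), COL4A2 (−0.55 to 0.15), COL4A5 (−0.57 to 0.60), COL11A2 (−0.30 to 0.15), COL15A1 (−0.39 to 0.56), COL16A1 (−0.51 to 0.28) and SERPINH1 (−0.078 to 0.88). In both fits the sign also changed without pair 1 for COL5A2 (−0.15), COL15A1 (−0.43) and COL17A1 (−0.32), without pair 2 for COL4A5 (0.18) and COL16A1 (0.30), without pair 3 for COL4A5 (0.099), and without pair 4 for COL2A1 (−0.046) and COL11A2 (0.11). Of 829 comparisons of a collagen's unblocked value with an alternative, 726 kept direction and side of the threshold, 65 gained a call and 38 changed sign; none could lose a call, since unblocked limma called no collagen. The cause of these shifts was not tested. At most 6 reads per library limit the 16 collagens below the filter.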
